A study of Rattus norvegicus with 8 samples.

Results

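Factors that start and extend protein synthesis, and enzymes that load tRNAs with amino acids, are encoded by most of the 86 genes described here. These 86 were taken from 10771 genes with a symbol in the deposited array table. Membership was set by symbol alone, as those beginning with Eif or Eef and a digit, or naming an aminoacyl tRNA synthetase (1 letter followed by ars or ars2, and Eprs, Farsa and Farsb). The choice of this set was made with earlier results of these data known. Each gene took its brightest probe, all 86 were tested, and 85 had a value on all 8 arrays (Vars2 had none on ligation array 2). The tissue was the dorsal root ganglion, which houses sensory neurons, of Sprague Dawley rats at 7 days after the operation. In the ligation group (4 samples, labelled Ipsi) the spinal nerve had been tied, an operation known as the Chung model that is followed by neuropathic pain. The control group (4 samples) was labelled Contra in the titles and sham-operated in the descriptions, so operation and side of the body cannot be told apart. Every sample pooled the ganglia of 2 animals, so the spread between single animals was not measured, and neither age nor sex is given in the sources used here. Sample RNA was labelled with Cy5 and a common pool of control RNA with Cy3, and each value below is the log2 ratio of the first over the second.

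Translation starts when eIF2 brings the first tRNA to the small ribosomal subunit, eIF3 holds that complex together, and the eIF4 proteins recruit the capped mRNA. The cap-binding step is held back by the eIF4E-binding proteins, which the kinase complex mTORC1 inactivates, and the eIF2 step is held back by stress-sensing kinases, whose action also lets the transcription factor Atf4 be made. In rodent sensory neurons both controls are known to bear on pain sensitivity, and in people mutations of several synthetase genes cause inherited neuropathies.

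Of the 86 genes, 33 rose after ligation, 26 fell and 27 did not pass the test (limma, Benjamini-Hochberg adjusted p under 0.05 over all 22379 probes, of which 58.6% passed). Among all 10722 genes tested, 30.3% were higher, 35.9% were lower and 66.2% passed in either direction. The corresponding shares of the 86 were 38.4%, 30.2% and 68.6%, so the number called was near the background. The changes were small. Their median size was 0.23 on the log2 scale against 0.29 over all genes, and their median was 0.03 against -0.05. A difference of at least 2-fold was reached by 1 gene, Eif4ebp1, while 11.3% of all genes reached it. For 56 of the 86 the ligation arrays did not overlap the control arrays, against 62.4% of all genes. With quantile normalization between arrays, which gives control and ligation arrays 1 spread of ratios, 15 rose and 7 fell. The SD of the ratios had been 0.18 to 0.23 on control arrays and 0.59 to 0.63 on ligation arrays. Under all 16 alternatives run (those in which the gene had a value), 13 genes kept their call: Eif4ebp1, Eif4e3, Eif4a1, Eif3e, Eif3f, Eif3h, Eef1b2, Eef1d, Tars and Eif2c1 as higher, and Eif2b2, Fars2 and Yars2 as lower. Each of the other calls was lost under at least 1 alternative, most often quantile normalization (38 calls) or the sample channel taken without the reference (28 calls).

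**Figure D1:**
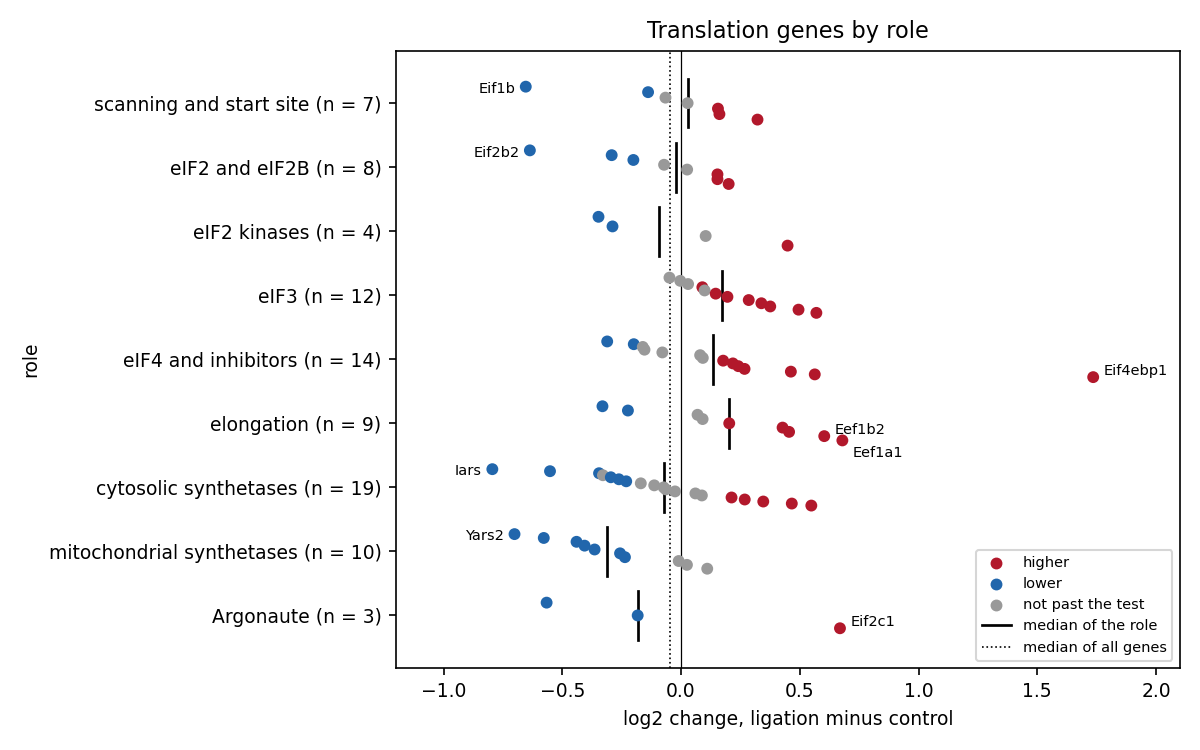
Each point is 1 gene, placed by its log2 change (ligation minus control, horizontal axis) in the row of its role. Red points were higher, blue points lower and grey points did not pass the test, the bars mark the median of each role and the dotted line the median of all genes at -0.05. Eif4ebp1 stands alone at 1.74, eIF3 has no blue point, and the mitochondrial synthetases have no red one.

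The libraries differed in cell markers as well. The 6 neuronal markers summed to an intensity of 20.27 to 23.65 in control and 9.04 to 10.77 in ligation, with 0 higher and 5 lower. For the 6 macrophage markers the sums were 3.86 to 4.66 and 27.55 to 31.76, with 5 higher and 0 lower, and for the 4 fibroblast markers 22.47 to 31.03 and 43.95 to 56.66, with 4 higher. The 4 genes marking axotomised neurons rose as well, from 2.78 to 4.11 up to 36.25 to 41.24. T cell markers rose in 4 of 4 and endothelial markers in 2 of 3, while 2 of 3 myelinating Schwann cell markers, 1 of 4 satellite glial markers and 1 of 5 muscle markers fell (1 muscle marker rose). No listed marker was at 0 in the mean, but some were under an intensity of 0.1. These included the T cell markers Cd3e (0.046) and Cd8a (0.05), the macrophage marker Itgam (0.031) and the satellite glial marker Kcnj10 (0.012). The muscle markers that fell and rose, Myh4 (0.074) and Tnnt3 (0.089), were also this dim. In bulk RNA of this kind, fewer cells of a type and less RNA per cell cannot be told apart. These shifts run alongside every result that follows, and their part in the results was not tested.

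The initiation factors that scan the mRNA for its start codon moved both ways, with 3 of 7 higher and 2 lower (0 and 0 with quantile normalization, 1 and 1 with the sample channel alone). The share that passed, 71.4%, was near the 66.2% of all genes. Eif1b, a close relative of the start-codon factor Eif1, fell by the most. Its ratios were -0.01, 0.08, 0.12 and -0.16 in control and -0.62, -0.65, -0.61 and -0.70 in ligation, groups that did not overlap. The change was -0.65 (SE 0.061, n = 4 per group, adjusted p = 6.67e-05), or 1.57-fold lower, and a second, dimmer probe of the gene also fell. Eif5b, the GTPase that joins the ribosomal subunits, read 0.06, -0.05, -0.03 and 0.05 in control and 0.31, 0.36, 0.28 and 0.35 in ligation, so all ligation arrays were above all control arrays (change 0.32, SE 0.034, adjusted p = 0.000131). Eif1ay (Eif1ax in current naming), which encodes the scanning factor eIF1A, rose by 0.16. Eif5, which triggers GTP hydrolysis on eIF2, changed least of these (0.03, SE 0.033, adjusted p = 0.496), and Eif1 itself did not pass the test (-0.07, adjusted p = 0.202). Eif1ad (-0.14), placed here by its symbol alone, lost its call without ligation array 2 (-0.13, adjusted p = 0.0527). Its value was 0.11 with quantile normalization.

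The 3 subunits of eIF2 rose slightly, with calls that did not hold in every setting, whereas 3 of the 5 measured subunits of eIF2B, the factor that recharges eIF2 with GTP, fell. Eif2s1, the alpha subunit that the stress kinases phosphorylate, read -0.07, -0.03, -0.07 and -0.10 in control and 0.12, 0.03, 0.07 and 0.30 in ligation. Every ligation array was above every control array, with ligation array 4 the highest (change 0.20, SE 0.059, adjusted p = 0.0207), but the call was lost without control array 4 (0.19, adjusted p = 0.0537). Eif2s2 and Eif2s3x, the beta and gamma subunits, each rose by 0.15 by their brightest probes. The second probe of Eif2s2 gave -0.09 and did not pass, and the call was lost with the mean of its probes. The other probes of Eif2s3x gave 0.07, 0.42 and -0.04, and among these only the one at 0.42 passed. Eif2s3x lost its call without control array 1, 3 or 4 or ligation array 1 or 3, where the adjusted p lay between 0.0531 and 0.0813. Among the eIF2B subunits Eif2b2 fell by the most, with ratios of -0.08, 0.15, 0.07 and 0.00 in control and -0.62, -0.55, -0.58 and -0.65 in ligation. Its groups stood well apart (change -0.64, SE 0.053, adjusted p = 3.7e-05), and the gene was 1.55-fold lower. Eif2b5, the catalytic subunit, fell by 0.29 and Eif2b4 by 0.20 (adjusted p = 0.00191). Eif2b1 (0.03, adjusted p = 0.331) and Eif2b3 (-0.07, adjusted p = 0.203) did not pass the test. In the main setting 75% of these 8 genes passed, against 66.2% of all genes. With quantile normalization 2 of these 8 genes were higher and 1 was lower, and with the sample channel alone 0 were higher and 2 were lower, so no eIF2 subunit passed there (Eif2s1 0.16, adjusted p = 0.1575).

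The eIF2 kinases gave 1 rise, 2 falls and 1 gene too dim to judge, so 75% passed, against 66.2% of all genes. Eif2ak2 encodes PKR, which senses double-stranded RNA and is induced by interferon. It read 0.07, 0.07, 0.15 and 0.00 in control and 0.50, 0.38, 0.61 and 0.60 in ligation, without overlap (change 0.45, SE 0.058, adjusted p = 0.000378). Eif2ak3, which encodes the endoplasmic reticulum stress sensor PERK, read -0.01, 0.02, 0.06 and 0.13 in control and -0.29, -0.29, -0.32 and -0.29 in ligation. By this brightest probe it fell with no overlap (-0.35, SE 0.033, adjusted p = 7.07e-05), yet its other probe rose by 0.37 (SE 0.048, adjusted p = 0.000391), so the direction of this gene depends on the probe. The mean of both probes was 0.01. Eif2ak1, the haem-regulated kinase, fell by 0.29 with both of its probes lower. Eif2ak4, the kinase GCN2 that senses uncharged tRNA, had a mean intensity of 0.0163, and single rounding steps could move its ratio far, so no direction was resolved (0.10, SE 0.316, adjusted p = 0.806). With quantile normalization 0 of the 4 kinases passed, and with the sample channel alone 1 was higher and 1 lower.

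Of the 12 genes of eIF3, the largest initiation complex, 8 rose, 0 fell and 4 did not pass, with a median change of 0.17. Per array their median ratio was -0.08 to 0.00 in control and 0.13 to 0.20 in ligation, groups that did not overlap. Eif3f, which encodes an MPN-domain subunit, read 0.00, 0.11, -0.11 and -0.02 in control and 0.51, 0.58, 0.58 and 0.58 in ligation. All ligation arrays were far above the control arrays (change 0.57, SE 0.047, adjusted p = 3.51e-05), and the gene was 1.48-fold higher. Eif3e read -0.11, -0.05, -0.14 and -0.09 against 0.24, 0.24, 0.23 and 0.25, a narrow band in ligation above a narrow band in control (change 0.34, SE 0.024, adjusted p = 1.66e-05). Eif3h gave -0.06, -0.02, -0.05 and -0.08 against 0.25, 0.23, 0.24 and 0.20, again without overlap (change 0.29, SE 0.022, adjusted p = 2.44e-05). Eif3c, a core subunit, rose by 0.49 with a wider spread (SE 0.127, adjusted p = 0.0117). Eif3s10 (now Eif3a), the largest subunit, rose by 0.38, and all 4 of its probes were higher. The rises of Eif3d (0.20), Eif3s6ip (now Eif3l, 0.15) and Eif3s9 (now Eif3b, 0.09) were smaller, and Eif3d turned to -0.06 when the sample channel was used without the reference. Eif3g (0.00, SE 0.033, adjusted p = 0.957), Eif3i, Eif3k and Eif3j lay between -0.05 and 0.10 and did not pass. The number higher was 3 with quantile normalization and 5 with the sample channel alone, and 0 were lower in either. In the main setting 66.7% of the 12 were higher, against 30.3% of all genes. In either direction 66.7% passed, near the 66.2% of all genes.

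Among the 14 genes of the cap-binding eIF4 group and its inhibitors, 7 rose and 2 fell (3 and 0 with quantile normalization, 4 and 2 with the sample channel alone), and 1 change stood apart from all others. In the main setting 64.3% of the 14 passed, near the 66.2% of all genes. Eif4ebp1 encodes 4E-BP1, the inhibitor that holds the cap-binding protein eIF4E until mTORC1 phosphorylates it. Its ratios were -0.09, -0.21, -0.16 and -0.06 in control and 1.47, 1.60, 1.75 and 1.59 in ligation. The groups were separated by more than 1.5, and the change of 1.74 (SE 0.061, n = 4 per group, adjusted p = 9.21e-07) made the gene 3.33-fold higher. The sample intensity behind it went from a mean of 0.425 to 1.80, in the middle of the scale, and over the 16 alternatives the gene stayed higher by at least 1.38. The probe of Eif4ebp2, which encodes a second inhibitor of the same kind, was at a mean intensity of 0.0413 and read 0.00 on 7 of 8 arrays. Its change of 0.08 (adjusted p = 0.391) could not be resolved at that brightness.

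Eif4e, the cap-binding protein itself, rose by far less than its inhibitor. It read -0.08, 0.02, -0.01 and -0.12 in control and 0.12, 0.13, 0.15 and 0.11 in ligation, with no overlap (change 0.18, SE 0.034, adjusted p = 0.00291), but the change was 0.01 with the sample channel alone. Eif4e3, a divergent cap-binding relative, read -0.08, -0.14, -0.17 and 0.09 against 0.47, 0.47, 0.35 and 0.67, and ligation was again higher on every array (change 0.56, SE 0.082, adjusted p = 0.00071). Eif4a1, the RNA helicase of the complex, read -0.02, -0.06, -0.09 and -0.01 against 0.45, 0.36, 0.39 and 0.45 (change 0.46, SE 0.031, adjusted p = 1.37e-05). Its groups did not overlap either. Eif4a2, the second helicase, did not pass by its brightest probe (-0.15, adjusted p = 0.148), but a much dimmer probe rose by 0.65 (adjusted p = 0.000283), and the mean of both was 0.25. The related Eif4a3, a part of the exon junction complex, rose by 0.27 near the bright limit (0.16 with quantile normalization, with no call there or with the sample channel alone), and the helicase cofactor Eif4b rose by 0.22 (but was at -0.11 with quantile normalization). Eif4e2, a cap-binding repressor, rose by 0.24, but gave 0.00594 with quantile normalization (adjusted p = 0.96) and lost its call also with the sample channel alone (0.16) and with the mean of its probes (0.0896). The scaffold genes Eif4g3 and Eif4g1 fell by 0.31 and 0.20. Eif4g1 was dim, its groups overlapped, and its call was lost without control array 3 or 4 or ligation array 1, 2 or 3 (adjusted p = 0.0574 to 0.0594). Eif4h and Eif4g2 did not pass by their brightest probes, which lay near the bright limit of the scale. The 3 dimmer probes of Eif4h fell by 0.25, 0.25 and 0.30, and the 3 dimmer probes of Eif4g2 rose by 0.18, 0.17 and 0.17. Eif4enif1, which carries eIF4E to the nucleus, changed least here (-0.08, SE 0.057, adjusted p = 0.278).

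**Figure D2:**
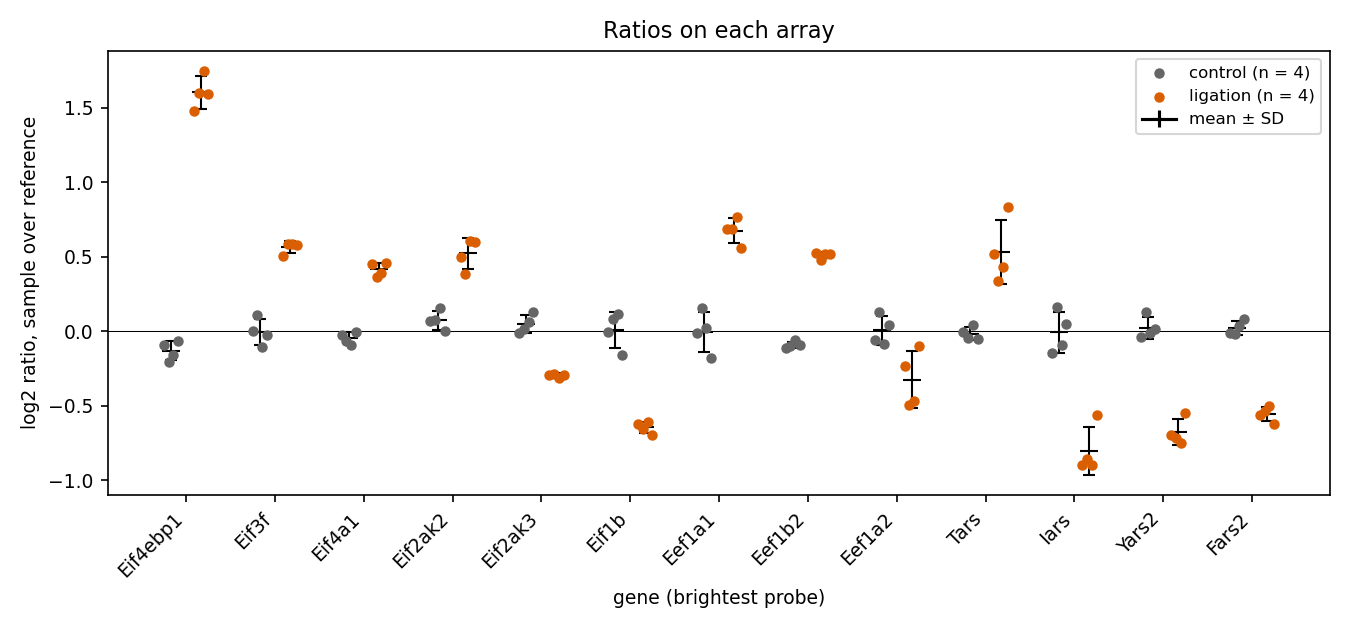
Log2 ratio of sample over reference (vertical axis) on each of the 8 arrays for 13 genes, with grey points for control, orange points for ligation, and the cross for the mean with its SD (n = 4 per group). The orange points of Eif4ebp1 lie between 1.47 and 1.75 and those of Iars between -0.90 and -0.56. The 13 genes were picked for display, and none has overlapping groups, which also holds for 62.4% of all genes. Each gene is shown by its brightest probe, and the other probe of Eif2ak3 rose by 0.37.

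Elongation factors rose in 5 of 9 genes, fell in 2 and did not pass in 2, with a median change of 0.20 (3 higher and 0 lower with quantile normalization, 3 and 1 with the sample channel alone). The shares were 55.6% higher and 77.8% past the test, against 30.3% and 66.2% of all genes. The factor eEF1A carries charged tRNAs to the ribosome. Its widely expressed form, Eef1a1, read -0.01, 0.15, 0.02 and -0.18 in control and 0.68, 0.69, 0.77 and 0.56 in ligation. Ligation was above control on every array (change 0.68, SE 0.076, adjusted p = 0.000167), but this probe was close to the bright limit and its 3 spots gave 0.96, 0.16 and 0.94. A second probe rose by 0.85 (adjusted p = 5.71e-07) and the remaining one, at an intensity of 0.0413, gave -0.08 (adjusted p = 0.391). The change of Eef1a1 was 0.42 (adjusted p = 0.1065) with quantile normalization and 0.03 with the sample channel alone. Eef1a2, the form used in neurons and muscle, read -0.06, 0.13, -0.08 and 0.04 in control and -0.23, -0.50, -0.47 and -0.10 in ligation. Ligation array 4 came close to the lowest control array without overlap (change -0.33, SE 0.0997, adjusted p = 0.0237), and the call was lost without control array 2 or 4 or ligation array 2 or 3 (adjusted p = 0.0585 to 0.0637).

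The exchange factor that recycles eEF1A rose in all 3 of its measured subunits. Eef1b2 read -0.11, -0.10, -0.06 and -0.09 in control and 0.53, 0.48, 0.52 and 0.52 in ligation. The spread within each group was small beside the gap between them (change 0.60, SE 0.021, adjusted p = 9.23e-07), although the probe was near the bright limit, which can make a rise look smaller. Eef1d read -0.03, -0.02, -0.02 and -0.01 against 0.44, 0.35, 0.43 and 0.42, likewise apart (change 0.43, SE 0.025, adjusted p = 7.54e-06), and Eef1g rose by 0.45 (adjusted p = 2.17e-05). Eef2, which moves the ribosome along the mRNA, read 0.03, 0.03, 0.08 and 0.11 against 0.31, 0.22, 0.25 and 0.28. That is a small rise without overlap (0.20, SE 0.030, adjusted p = 0.000783), which was 0.01 with quantile normalization. Eef2k, the kinase that inactivates eEF2, read 0.14, -0.15, 0.00 and 0.14 against -0.13, -0.29, -0.24 and -0.12, so its groups overlapped (change -0.22, SE 0.076, adjusted p = 0.0381). Its call was lost without control array 1, 3 or 4 or ligation array 1, 2 or 3 (adjusted p = 0.052 to 0.0962). Eif5a, which helps the ribosome past stalling residues and carries the modified amino acid hypusine, did not pass (0.07, SE 0.060, adjusted p = 0.36), nor did Eef1e1 (0.09), a part of the multisynthetase complex.

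Cytosolic synthetases moved both ways, with 5 of 19 higher (26.3%), 6 lower (31.6%) and 8 not past the test. Over all genes 30.3% were higher and 35.9% lower, so these counts were near the background. With quantile normalization 3 were higher and 1 lower, and with the sample channel alone 3 and 5. Threonyl-tRNA synthetase, Tars, rose by the most. It read -0.01, -0.05, 0.04 and -0.05 in control and 0.52, 0.34, 0.43 and 0.83 in ligation, with ligation array 4 the highest and no overlap (change 0.55, SE 0.102, adjusted p = 0.00244). Cars, for cysteine, rose by 0.47 (SE 0.066, adjusted p = 0.000623), with both of its probes higher. Rars (0.27) and Eprs (0.21), for arginine and for glutamate with proline, rose less, and Eprs was at -0.05 with the sample channel alone. Gars, the glycine enzyme of cytosol and mitochondria and a neuropathy gene in people, was dim and read 0.00, -0.26, 0.26 and 0.00 in control and 0.36, 0.19, 0.42 and 0.42 in ligation. Its groups overlapped (change 0.35, SE 0.111, adjusted p = 0.0302), and the call was lost without control array 1 or 4 or ligation array 1, 3 or 4 (adjusted p = 0.0642 to 0.0774).

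Isoleucyl-tRNA synthetase, Iars, fell by the most of the 86 genes. It read -0.14, 0.16, -0.09 and 0.04 in control and -0.90, -0.86, -0.90 and -0.56 in ligation, with ligation array 4 the least reduced and no overlap (change -0.79, SE 0.098, adjusted p = 0.000297), or 1.73-fold lower. Yars, for tyrosine, read -0.07, 0.05, -0.02 and -0.03 against -0.52, -0.64, -0.64 and -0.48, also apart (change -0.55, SE 0.047, adjusted p = 4.43e-05). The change was -0.48 for Iars (adjusted p = 0.1083) and -0.25 for Yars (adjusted p = 0.0543) with quantile normalization, under which neither passed. Nars, for asparagine, fell by 0.35, a call also lost with quantile normalization. The 2 subunits of the phenylalanine enzyme fell by like amounts, Farsb by 0.30 and Farsa by 0.26 (SE 0.026, adjusted p = 9.87e-05). Farsa read 0.00 on every control array at a mean intensity of 0.12, and rounding alone allowed changes from -0.49 to -0.03. Farsa lost its call with the sample channel alone, and Farsb lost its call there and with quantile normalization. Lars, for leucine, fell by 0.23 but was at 0.08 with the sample channel alone. Aars, another neuropathy gene, was too dim for its ratios of -0.22, 0.22, 0.22 and -0.22 in control and -0.22, -0.42, -0.49 and -0.19 in ligation to separate (change -0.33, SE 0.136, adjusted p = 0.0742). Its adjusted p was 0.0486 without control array 1 and 0.0482 without control array 4. Wars, the tryptophan enzyme that interferon-gamma induces in other cells, did not pass (-0.06, SE 0.070, adjusted p = 0.458), with ratios of 0.08, -0.18, -0.17 and 0.07 in ligation and 0.05, 0.05, -0.04 and 0.00 in control. Kars, for lysine, changed least (-0.03, SE 0.056, adjusted p = 0.73).

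Some synthetase genes carry, near their start, the letters of an element through which Atf4 and C/EBP factors are known to act on amino acid response genes in mammals. The letters TGATGNAA were searched for on both strands, as the only motif, in RefSeq windows of GRCr8 from 250 bases before to 50 bases after each start. A match was found in 7 of the 16 cytosolic synthetase genes with a window (43.8%), against 4.16% of all 27457 symbols with a window. Of all 33469 windows 3.98% held a match. The match was found in 0 of 9 mitochondrial synthetase genes, and among the other roles in Eif2s2 and Eif3g. Among the 7 synthetase genes Aars held 2 matches and the others 1 each. The RefSeq sequences around the matches of the 7 synthetase genes are shown 5′ to 3′ along the gene, with the match in capitals.
Tars: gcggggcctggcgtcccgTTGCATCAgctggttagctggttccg
Cars: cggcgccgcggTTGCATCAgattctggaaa
Mars: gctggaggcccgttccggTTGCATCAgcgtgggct
Aars, first match: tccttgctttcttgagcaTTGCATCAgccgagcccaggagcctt
Aars, second match: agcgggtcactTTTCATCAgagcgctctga
Nars: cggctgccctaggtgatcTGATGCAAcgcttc
Yars: acgagctcagcTGATGCAAcctg
Iars: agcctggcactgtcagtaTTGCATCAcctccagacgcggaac
The stretches lie at chr2:62114804-62114847 (minus strand) for Tars, chr1:208225334-208225363 (minus) for Cars, chr7:65023754-65023788 (minus) for Mars and chr19:55908352-55908395 and chr19:55908480-55908509 (plus) for Aars. Those of Nars, Yars and Iars lie at chr18:60275783-60275814 (minus), chr5:146820190-146820212 (plus) and chr17:15193653-15193694 (minus). The match began 27 bases before the start in Tars, 17 in Mars, 112 in Aars, 14 in Nars and 24 in Iars, and at base 18 after the start in Cars, 39 in Yars and, for its second match, 10 in Aars. Of these 7 genes Tars and Cars rose, Nars, Yars and Iars fell, and Mars (-0.11) and Aars did not pass the test. With quantile normalization the calls of Nars, Yars and Iars were lost, and with the sample channel alone that of Cars. Of the 9 without a match Eprs rose, Lars, Farsa and Farsb fell, and 5 did not pass. Whether the match bears on any of these changes was not tested. No window was matched for Dars, Gars and Rars among the cytosolic synthetases, nor for Eef1d, Eif2c2, Eif3e, Eif3h, Eif4b, Eif4e3 and Eif4ebp1.

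**Figure D3:**
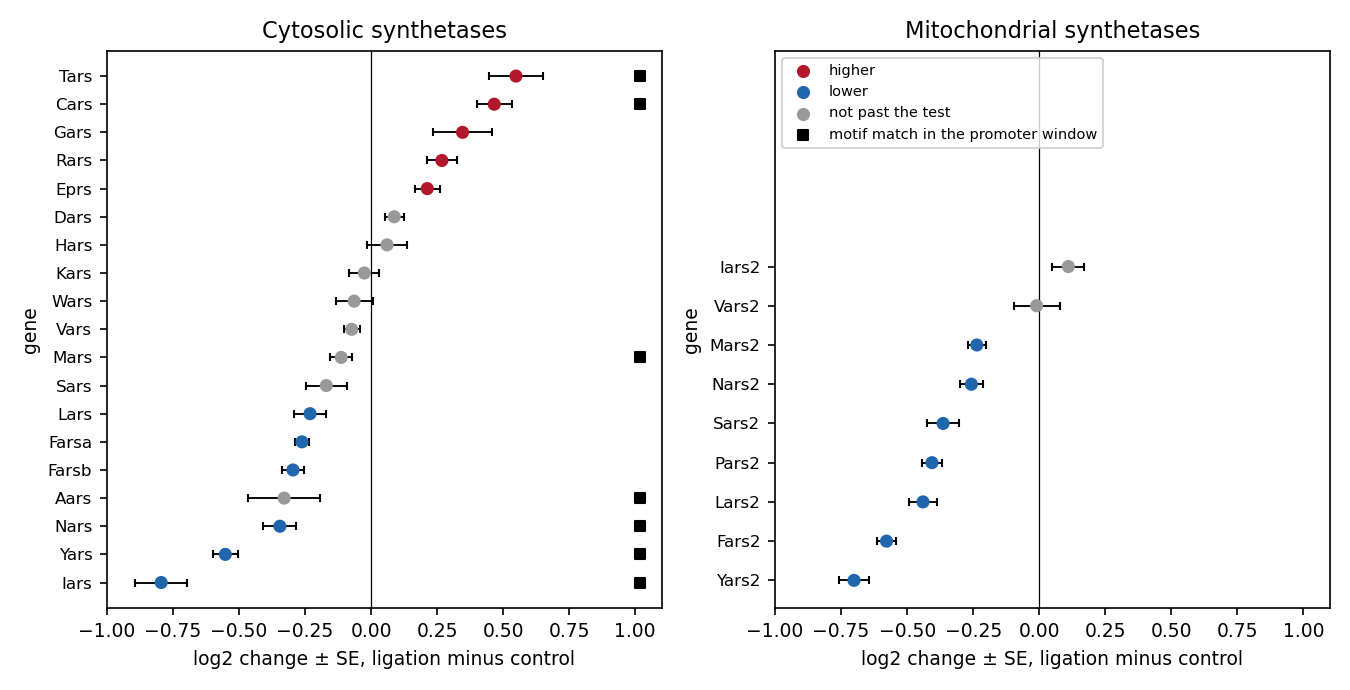
Log2 change (ligation minus control, horizontal axis) with its SE for the 19 cytosolic synthetases on the left and 9 of the 10 mitochondrial ones on the right, coloured by call. Black squares mark a motif match in the promoter window, and the 7 squares spread from Tars at 0.55 down to Iars at -0.79.

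Mitochondrial synthetases, which serve the translation of the few proteins encoded in mitochondrial DNA, fell in 7 of 10 and rose in 0, with a median change of -0.31. Per array their median ratio was 0.00 on each control array and between -0.36 and -0.24 after ligation. Yars2, for tyrosine, read -0.04, 0.13, -0.01 and 0.01 in control and -0.69, -0.72, -0.75 and -0.55 in ligation. It fell without overlap (change -0.70, SE 0.055, adjusted p = 2.84e-05), 1.63-fold, and its second probe fell as well. Fars2, for phenylalanine, read -0.01, -0.02, 0.04 and 0.08 against -0.56, -0.54, -0.50 and -0.62, also far apart (change -0.58, SE 0.035, adjusted p = 8.23e-06). Lars2, for leucine, gave 0.10, 0.09, 0.00 and 0.00 against -0.42, -0.47, -0.44 and -0.25, and all ligation arrays were lower (change -0.44, SE 0.054, adjusted p = 0.00029). Pars2 fell by 0.41, Sars2 by 0.36, Nars2 by 0.26 and Mars2 by 0.24. Sars2 was dim, rounding alone allowed changes from -0.82 to 0.08, and its call was lost with the sample channel alone. Nars2 was at 0.05 in that setting. Lars2 also lost its call there, Pars2 lost its call with quantile normalization, and Mars2 and Nars2 lost theirs in both settings. For Mars2 rounding alone allowed changes from -0.43 to -0.04. The brightest probe of Iars2 did not pass (0.11, adjusted p = 0.161), but both of its dimmer probes fell (by 0.49 and 0.36), and the mean of its probes was -0.25. Vars2, placed here by its symbol alone, near the bright limit and fitted without ligation array 2, changed least (-0.01, SE 0.087, adjusted p = 0.948). The number lower was 4 with quantile normalization and 3 with the sample channel alone, and 0 were higher in either. In the main setting 70% of the 10 were lower, against 35.9% of all genes. In either direction 70% passed, near the 66.2% of all genes.

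The symbol rule also took 3 Argonaute genes, which do not encode translation factors. Eif2c1, Eif2c2 and Eif2c3 are old names of Ago1, Ago2 and Ago3, the Argonaute proteins of RNA silencing. Eif2c1 read 0.09, 0.00, 0.00 and 0.10 in control and 0.74, 0.64, 0.69 and 0.81 in ligation, a clear separation (change 0.67, SE 0.045, adjusted p = 1.31e-05), with both of its probes higher. Eif2c3, also dim, fell from 0.00, -0.15, 0.14 and 0.14 to -0.49, -0.49, -0.58 and -0.58, also apart (change -0.57, SE 0.070, adjusted p = 0.000303). Eif2c2 was dim and its groups overlapped (-0.18, SE 0.059, adjusted p = 0.0302). Its call was lost without control array 1, 3 or 4 or ligation array 3 (adjusted p = 0.0664 to 0.0767), and it read 0.11 with the sample channel alone. Without the 3 Argonaute genes 32 genes rose and 24 fell.

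Close relatives within the list were compared directly, by testing whether the difference between their ratios changed with ligation. Of 13 pairs with values on all arrays, 6 separated the groups completely and reached 0.0286, the smallest p that 4 against 4 arrays can give (exact permutation test, two-sided). Adjusted over the 13 pairs this was 0.0619, so 0 passed. By the brightest probes the change of the difference was 0.80 for Eif2ak2 over Eif2ak3, 0.62 for Eif4a1 over Eif4a2, 0.18 for Eef1b2 over Eef1d and 0.15 for Yars over Yars2. The first 2 values depended on the probe, since Eif2ak3 and Eif4a2 each had another probe that rose. With the mean of all probes the change was 0.44 for Eif2ak2 over Eif2ak3, 0.21 for Eif4a1 over Eif4a2 and -0.0632 for Yars over Yars2, and with the sample channel alone it was 0.03 for Eef1b2 over Eef1d. Eif4ebp1 with Eif4ebp2 and Eef1a1 with Eef1a2 were also among the 6, but no size is given for them, since the probe of Eif4ebp2 was too dim and that of Eef1a1 too close to the bright limit. Farsa and Farsb, which form 1 enzyme, differed by the least of the 13 pairs (0.03, exact permutation p = 0.514). With the sample channel alone 8 of the 13 pairs reached the smallest p and passed. With only the brighter probes 5 passed with unchanged values, because fewer pairs were left to adjust over. Since the smallest p is fixed, passing here depends on how many pairs are tested and how many reach it.

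Probes of the same gene did not always move together. Of the 35 genes here with several probes, 11 had all of them past the test in 1 direction, and Eif1a and Eif2ak3 had probes past it in both. Over all 3365 genes with several probes, 6.27% had both directions. Eif1a rose by 0.16 with its brightest probe (adjusted p = 0.00241) and fell by 0.26 with the dimmer one (adjusted p = 0.00177). The array table does not say which transcript or exon a probe reads. Brightness also differed along the list. Among the 37 genes in the brightest quartile of all genes 21 rose and 6 fell, where 35.5% of all genes in that quartile rose and 42.9% fell.

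**Figure D4:**
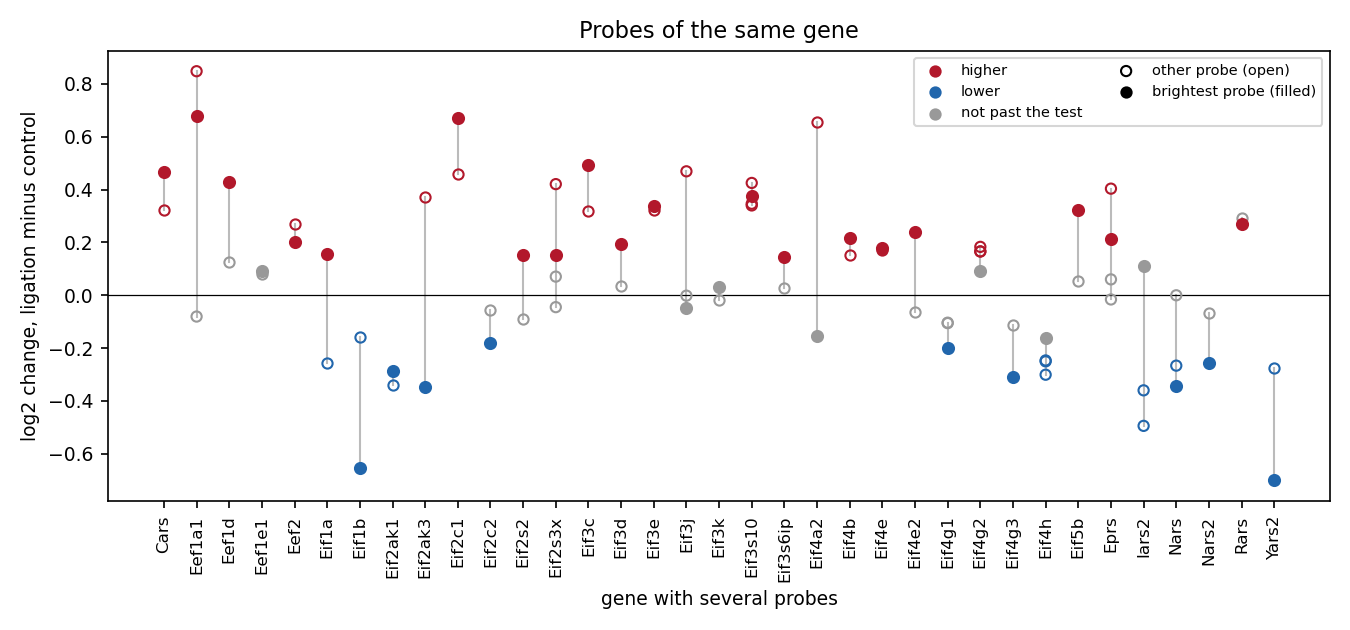
Log2 change (ligation minus control, vertical axis) of every probe for the 35 genes with several probes, with the brightest probe filled and the others open, coloured by call. The filled and open points of Eif2ak3 lie on opposite sides of 0 at -0.35 and 0.37, and the 4 points of Eif3s10 lie close together above 0.

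The ribosome's own genes gave a reference for size and direction in the main setting. Of 72 measured cytosolic ribosomal protein genes 58 rose and 3 fell, with a median change of 0.57, beside 0.17 for eIF3 and 0.20 for the elongation factors. Of 62 mitochondrial ribosomal protein genes 1 rose and 45 fell, with a median of -0.24 beside -0.31 for the mitochondrial synthetases. The difference between these groups was not tested. Of the cytosolic set 80.6% were higher and of the mitochondrial set 72.6% lower, against 30.3% and 35.9% of all genes. These counts are from the main setting alone. Rps6, a cytosolic ribosomal gene above the bright limit (mean intensity 20.97), read 0.37 there (adjusted p = 0.0549). With the sample channel alone Rps6 was at -0.65 (adjusted p = 0.00616). Some of its control arrays had no value.

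Genes of the amino acid response, which Atf4 switches on, moved both ways, with 10 of 22 measured genes higher and 7 lower (5 and 5 with quantile normalization). The share that passed was 77.3%, against 66.2% of all genes. Atf4 itself did not pass (-0.02, SE 0.061, adjusted p = 0.855), which says nothing of its translation. Cebpb, a partner of Atf4, rose by 0.93 (SE 0.067, adjusted p = 1.86e-05) and the lipoprotein receptor gene Vldlr by 0.59 (adjusted p = 2.19e-05). Phgdh, the first enzyme of serine synthesis, fell by 1.09 (SE 0.040, adjusted p = 1.06e-06), from -0.04, 0.02, -0.04 and 0.05 in control to -1.0, -1.08, -1.15 and -1.12 in ligation. The groups of Phgdh lay far apart.

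Of 15 measured genes of mTORC1 and its branch of translation control, 2 rose and 6 fell (0 and 3 with quantile normalization). The share that passed was 53.3%, against 66.2% of all genes. Of the 6 falls, Rps6kb1 was at 0.19 (adjusted p = 0.0125) with the mean of its probes, so its direction depends on the probe, and Mknk1 (-0.16) lost its call without any 1 of 7 arrays, all but ligation array 3 (adjusted p = 0.0564 to 0.096). Rptor and Mlst8, which encode 2 subunits of mTORC1, fell by 0.58 (SE 0.026, adjusted p = 2.22e-06) and 0.55 (adjusted p = 2.29e-05), and Larp1, which holds back mRNAs of ribosomal proteins, fell by 0.41 (adjusted p = 1.64e-05). Tsc2, an upstream inhibitor, changed least (0.02, SE 0.059, adjusted p = 0.824).

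Poly(A) binding, termination and recycling genes rose in 4 of 9 measured and fell in 2 (3 and 0 with quantile normalization). The share that passed, 66.7%, was near the 66.2% of all genes. Pabpc1, the main cytosolic poly(A)-binding protein, which bridges the mRNA tail to eIF4G, read 0.00, -0.04, -0.17 and 0.00 in control and 1.15, 1.21, 1.16 and 1.22 in ligation. Its groups were more than 1 apart and it was 2.36-fold higher (change 1.24, SE 0.044, adjusted p = 9.21e-07). The release factor gene Etf1 rose by 0.41 (adjusted p = 8.76e-06), the recycling factor gene Mcts1 fell by 0.58 (adjusted p = 2.96e-05, but -0.0751 at an adjusted p of 0.4441 with quantile normalization and no call with the sample channel alone), and the helicase gene Ddx3x changed least (0.03, adjusted p = 0.359). The other fall, of Dhps (-0.10), lost its call without control array 1, 2 or 4 or ligation array 2, 3 or 4 (adjusted p = 0.0553 to 0.1002), which leaves 1 fall.

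Among 11 genes of the multisynthetase scaffold and of tRNA handling, which include Farsa and Farsb, 3 rose and 4 fell (3 and 2 with quantile normalization, 1 and 2 with the sample channel alone). The share that passed, 63.6%, was near the 66.2% of all genes. Trnt1, which adds the CCA end to tRNAs, fell by 1.03 (SE 0.053, adjusted p = 4.08e-06), whereas the scaffold gene Aimp2 rose by 0.51 (adjusted p = 0.000182) and the tRNA export gene Xpot changed least (-0.02, adjusted p = 0.738). All 3 measured mitochondrial translation factors fell, Mrrf by 0.57 (adjusted p = 1.04e-05), Gfm1 by 0.52 (adjusted p = 8.4e-05) and Tufm by 0.32 (adjusted p = 0.00109). Over all genes 35.9% fell. With quantile normalization Mrrf alone passed, and Gfm1 was at -0.20 (adjusted p = 0.277) and Tufm at -0.0493 (adjusted p = 0.7125). Of 12 interferon-induced genes measured beside Eif2ak2, 5 rose, 0 fell and 7 did not pass (4 higher and 0 lower with quantile normalization). The share that passed was 41.7%, against 66.2% of all genes. Gbp2 rose by 2.26 (SE 0.102, adjusted p = 2.42e-06) and Irf1 by 0.86 (adjusted p = 4.94e-06), while the antiviral gene Oas1a changed least (0.09, SE 0.257, adjusted p = 0.785).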

How the data were processed

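The authors deposited a relative linear intensity of both channels for each of the 8 arrays, per the file headers. Cy5 held the sample and Cy3 a control pool on every array, and 100 ng of RNA was amplified in 2 rounds, per the labels. Per the submitters' processing notes, Agilent Feature Extraction 8.5.1.1 read the arrays. How background and dye were corrected is not given in the sources used here. A deposited log10 table equalled the log10 ratio of both channels within 0.005 for 100% of spots and was not used further.

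Log2 ratios were taken as they stood, with no offset and no filter on dim probes, and repeated spots were averaged. Ligation was tested against control with lmFit and eBayes of limma 3.58.1 (R 4.3.3), two-sided, for 22379 probes, and 112 with too few values were left out. Intensities were rounded to 0.01 and piled up from 17.8 upward, so ratios of bright probes can be too small. The median sample intensity was 0.17 to 0.22 per array, and the number of arrays limits the precision. Dim means an intensity under 0.1. Relatives were compared by exact permutation in scipy 1.17.1, and RefSeq promoter windows (GRCr8) matched 75 of 86 genes. The fit was tested on simulated data.

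The genes and lists were chosen with earlier results of these data known. Full statistics went to the 8 largest rises and falls, the 2 smallest adjusted p and the smallest change of each role, some genes of known interest, and, of each pathway list, the 3 smallest adjusted p and the smallest change. Eif6 was not matched by symbol and is not analysed here, and single values of 2 further genes are not reported here. Alternatives changed the normalization, the channel, the probe rule, the filter, an offset of 0.05, the variance model and a replicate block, and left out each array in turn.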

Additional observations from a re-analysis of the deposited data

Results flagged for a closer look

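Within the 4 arrays of 1 group, 14 of 171 sets of ratios had 1 array far from the other three, where chance gives about 1 in 20. Among genes that rose, Eif3f read 0.51 on ligation array 1 (0.58 to 0.59 on the others), Eef1b2 0.48 on ligation array 2 (0.52 to 0.53) and Eif4a3 0.42 on ligation array 2 (0.21 to 0.24). Among genes that fell, Iars read -0.56 on ligation array 4 (-0.90 to -0.86), and Lars 0.15 on control array 2 (-0.09 to -0.05). Of genes not past the test, Hars read 0.038 on control array 2 and Eif3k 0.0186 on control array 4. For the others the remaining arrays shared 1 rounded value. Eif2c2 read 0.00 on control array 2 and -0.15 on ligation array 3, Eif4g1 0.00 on ligation array 4, Mars 0.13 on control array 3, Eif4enif1 -0.0931 on ligation array 1, Eif4ebp2 0.32 on ligation array 3 and Eif2ak4 -1.0 on ligation array 3. Mean intensities of these 6 genes were 0.0163 to 0.184. Leaving out the outlying array changed the call of Eif2c2 (ligation array 3, -0.14, adjusted p = 0.0664) and of no other gene that had passed.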

How the results depend on the processing

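Quantile normalization gave 15 genes higher and 7 lower, 26 genes of the pathway lists and 6363 probes past the test, and a median change of 0.0837. It gives all arrays 1 spread of ratios, and 38 of the 59 calls were lost. Before it, the SD of the ratios was 0.18 to 0.23 on control arrays and 0.59 to 0.63 on ligation arrays. On control arrays control RNA was set against a pool of control RNA, and quantile normalization does not keep this difference in spread. The part of the spread in the lost calls was not tested. Centring on bright probes moved the median to 0.0598. The sample channel alone gave 18 higher, 16 lower, 8 pairs and a median of 0.0472, and only the brighter probes gave 17 lower of 69 genes left, 8545 probes, 5 pairs and a median of 0.0909. The 5 pairs kept their values and passed because fewer pairs were left to adjust over, and the cause of the other shifts was not tested. Among genes with a call in the main or the other setting, quantile normalization turned the direction of Eif4b (-0.11), Eif1ad (0.11) and Dhps (0.0791), the sample channel alone that of Eif2c2 (0.11), Eprs (-0.0519), Lars (0.0825), Eif3d (-0.0563), Nars2 (0.0481), Trmt1 (-0.0366) and Rps6 (-0.65, with 2 control arrays missing), and the mean of all probes that of Eif2ak3 (0.0119), Eif4a2 (0.25), Iars2 (-0.25), Eif1a (-0.0501) and Rps6kb1 (0.19). In 0 of the 86 genes did a call turn into the opposite call. Leaving out 1 array in turn gave 30 to 34 higher, 22 to 28 lower, 1 gene past 2-fold, 44 to 46 pathway genes, 0 pairs (4 against 3 arrays cannot pass), 12019 to 12730 probes and a median of 0.02 to 0.04. Calls were gained without control array 1 for Dars (0.11) and Eif4g2 (0.16), without control array 2 for Eif3i (0.16), without control array 4 for Eif4enif1 (-0.13) and Eif4h (-0.20), without ligation array 2 for Mars (-0.14), and without ligation array 4 for Vars (-0.0911) and Sars (-0.24). Same-numbered control and ligation arrays correlated at r = 0.1068, 0.0676, 0.1381 and 0.1643, each best with its own number, which is a hint from the data only, so the numbers were not taken as pairs. With the replicate number as a block, 30 genes were higher and 23 lower, 45 pathway genes and 12577 probes passed, and 6 calls were lost (Eif1ad, Eif2c2, Eif2s1, Eif2s3x, Eif3s9 and Lars). Dim probes resolve only coarse steps, and bright ones may be understated.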
